A study of Mus musculus with 6 samples.

Results

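The genes described here are those that the deposited table assigns to the KEGG term for protein processing in the endoplasmic reticulum (ER), without Atf4 and Ddit3, which are treated apart. They are 152 of the 19353 genes in the table, and 150 of them had enough reads to be tested. The other 2 had too few reads to be tested; Mapk10, for example, had 0 to 10 counts per library. The study cultured purified primary bone marrow mesenchymal stem cells of WT mice and sequenced polyadenylated RNA from 6 libraries, 3 with melanin concentration hormone (MCH) and 3 without it (Control). Both groups received the same osteogenic induction medium with 50 µM ascorbic acid, 10 mM β-glycerol phosphate and 100 nM dexamethasone, and the MCH group also received 0.5 µM MCH, a neuropeptide. The sample titles give day 9 of induction for both groups, whereas the design text gives day 8. The labels do not say whether the libraries of a group derive from different animals or cultures; the p-values therefore measure the spread between libraries, which may be technical. The Control columns of the table do not carry the word Control and were assigned by the absence of MCH from their names, so every direction given here rests on those names. In the authors' deposited table, all 212 genes marked UP have the higher mean in the columns taken as Control and all 31 marked DOWN the higher mean in the MCH columns, so the authors' label runs opposite to MCH over Control as used here.

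Proteins bound for secretion, the membrane or the matrix enter the ER through a channel called the translocon and receive N-linked glycans. They fold there with chaperones and acquire disulfide bonds, and leave in vesicles coated with COPII. Proteins that fail to fold are moved back to the cytosol and degraded (ER-associated degradation, ERAD), and membrane sensors adjust the whole apparatus to the load, a reaction known as the unfolded protein response. Osteogenic cells secrete large amounts of type I collagen, whose hydroxylation and folding take place in the same compartment.

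Library totals ran from 16521980 to 18803949 counts, with a count for 16974 to 17546 genes. Libraries of the same group differed by more than counting noise, with a chi-square per degree of freedom of 15.8 to 26.9. On the first principal component, MCH replicate 1 lay at -10.9, MCH replicates 2 and 3 at -32.3 and -24.8, and the Control libraries between 18.9 and 25.5. Of the 9 mesenchymal stromal markers, none was at or below 10 counts in every library. Their summed counts were 16875 to 19896 in MCH and 28167 to 30795 in Control. Ly6a alone had 7889 to 10558 in MCH and 16575 to 17871 in Control. Ly6a, Pdgfra, Pdgfrb and Nt5e fell by edgeR, and Cxcl12, Cd44, Thy1, Eng and Lepr did not pass. The 6 osteoblast markers summed to 74143 to 78350 in MCH and 99946 to 116074 in Control, with Sp7 and Bglap at or below 10 counts. Most of that sum was Col1a1, with 64369 to 68614 in MCH and 81393 to 95948 in Control. The 9 macrophage markers summed to 810 to 1389 counts in MCH and 654 to 787 in Control, most of it Cd68, and 3 of them stayed at or below 10 counts. In MCH replicate 3 the macrophage markers Adgre1, C1qb, Ctss and Lyz2 had 50, 31, 92 and 176 counts. Of the 8 markers of plasma and B cells, a lineage rich in ER, 7 had at most 10 counts in every library and the other was Sdc1; the list summed to 1732 to 1931 in MCH and 2008 to 2287 in Control. The 2 erythroid markers summed to at most 8 counts in a library. The 3 nuclear-retained RNAs summed to 31397 to 32949 counts in MCH and 42566 to 56140 in Control. Whether these shifts have a part in the results below was not tested, and in bulk RNA fewer cells of a type and less RNA per cell cannot be told apart.

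Of the 17 genes that fold proteins in the ER or form their disulfide bonds, 8 rose with MCH (47.1%, beside 3.64% of all tested genes). Of the 12 COPII genes and the 3 membrane sensors of ER stress, 0 passed the test with all 6 libraries, beside 9.04% of all tested genes in either direction. Among so few genes, 0 is close to that share. Sec24d and Eif2ak3 passed, as lower, without MCH replicate 1 (adjusted p = 0.0305 and 0.0285). Of the 150 tested members, 14 rose and 2 fell with MCH at an adjusted p under 0.05 (edgeR quasi-likelihood test, Benjamini-Hochberg adjustment over all 13662 tested genes). The 14 are 9.33% of the members, beside 3.64% of all tested genes that rose, and the 2 are 1.33%, beside 5.4% that fell (9.04% in either direction). At an unadjusted p under 0.05, 34 of the 150 members were higher and 13 lower, beside 1767 and 1890 of all 13662 tested genes. These counts of all tested genes are the background for the unadjusted counts of each step below. Of all tested genes, DESeq2 called 5.17% higher and 6.27% lower, and limma-voom 3.16% and 4.93%. Hsp90b1, Sil1 and Calr rose among the chaperones, and Pdia3, Pdia6, Ero1l and Pdia4 among the disulfide enzymes. Erp29, which was placed in the same step as these enzymes, also rose. Lman2, Bcap31, Vcp, Eif2ak2, Bak1 and Eif2s1 were the other 6 that rose, and Mbtps1 and Casp12 fell. Leaving out 1 library changed the number that rose to 15 without MCH replicate 1, 1 without MCH replicate 2, 0 without MCH replicate 3, and 7, 2 and 1 without Control replicates 1, 2 and 3. The number that fell was then 5 without MCH replicate 1, 1 without Control replicate 3 and 0 in the other 4 cases. In these fits, 65 to 722 of all tested genes rose.

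Several ER chaperone promoters carry a known sequence element. It is shown here because it lies before the RefSeq starts of Hsp90b1, Calr and Hspa5, on which the chaperone results turn. RefSeq windows (GRCm38.p6, 250 bases before to 50 bases after a gene's start) were at hand for 124 of the 152 members (Sil1, Ero1l and Erp29 among those that rose, and Hyou1, had no window and were not searched). The windows were searched on both strands for 3 motifs known from the unfolded protein response. The first is the ER stress response element ERSE, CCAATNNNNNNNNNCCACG, which was found in 6 of 124 members (4.84%) and in 37 of 27025 genes with a window (0.137%). Among the 6 ER chaperones and cofactors with a window, 4 held it (66.7%), namely Hspa5, Hsp90b1, Calr and Canx; the others were Pdia6 and Syvn1. Of the members that rose and had a window, 3 of 11 held it (27.3%). The second, ERSE-II, is ATTGGNCCACG and lay in 2 of 124 members (1.61%), Dnajb11 and Herpud1, and in 12 of 27025 genes (0.0444%). The third, UPRE, is TGACGTGG and lay in 6 of 124 members (4.84%), Mapk8, Sec23a, Sec24d, Txndc5, Ube2j1 and Vcp, and in 193 of 27025 genes (0.714%). The 3 motifs share the letters CCACG on one strand or the other, but no member held more than 1 of them, so 14 of 124 members (11.3%) held any, beside 239 of 27025 genes (0.884%). The ERSE matches, and the ERSE-II match of Herpud1, are given below on the strand of the gene, 5′ to 3′, with the match in capitals. In Calr, and in the second match of Hsp90b1, the motif lies on the opposite strand and so reads as its reverse complement.
Hspa5, chr2:34772020-34772048, plus strand: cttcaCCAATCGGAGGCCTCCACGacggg
Hsp90b1, chr10:86705626-86705668, minus strand: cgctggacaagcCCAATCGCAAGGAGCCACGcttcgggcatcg
Hsp90b1, chr10:86705521-86705563, minus strand: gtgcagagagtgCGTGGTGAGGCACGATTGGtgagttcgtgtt
Calr, chr8:84847063-84847105, minus strand: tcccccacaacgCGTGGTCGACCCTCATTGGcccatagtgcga
Canx, chr11:50325788-50325830, minus strand: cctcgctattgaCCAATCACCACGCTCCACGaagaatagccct
Pdia6, chr12:17266479-17266521, plus strand: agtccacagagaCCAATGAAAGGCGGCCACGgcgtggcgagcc
Syvn1, chr19:6046520-6046562, plus strand: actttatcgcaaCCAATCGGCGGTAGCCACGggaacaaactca
Herpud1, chr8:94386365-94386399, plus strand: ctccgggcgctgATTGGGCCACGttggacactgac
Positions are counted back from the RefSeq start, with the base before it as -1. The ERSE of Hspa5 spans -65 to -47, that of Calr -162 to -144 and that of Canx -145 to -127. That of Pdia6 spans -98 to -80 and that of Syvn1 -44 to -26. In the deposited table Hspa5 starts further upstream, so by that span its match lies inside the gene. Hsp90b1 has 2 copies, from -212 to -194 and from -107 to -89. A match is a run of letters and was not read as a bound site. The motifs were already known from this pathway, so their shares among the members are a description and not a test. Of the 6 members with an ERSE, 3 rose with MCH (Hsp90b1, Calr and Pdia6) and 3 did not pass the test (Hspa5, Canx and Syvn1). Of all tested members 9.33% rose, and of all tested genes 3.64%. Whether the motif has a part in these changes was not tested.

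A few genes stood far above the others in level. On the scale of deposited FPKM (reads scaled to library depth and to the authors' gene lengths), averaged over the 6 libraries, P4hb stood highest at 971, rank 51 in the whole table. Hsp90ab1 followed at 646, Calr at 640, Cryab at 580.4, Ero1l at 469.8, Hsp90b1 at 379, Pdia3 at 285, Bcap31 at 228 and Hspa5 at 213. Calr stood above Hsp90ab1 in MCH, at 721 ± 42.0 against 633 ± 4.71 FPKM, and below it in Control, at 558 ± 19.0 against 658 ± 10.2 FPKM (SD, n = 3). Of the tested members, 87 were among the 3416 tested genes with the highest FPKM, and all 14 that rose were among these 87 (16.1%). Of those 3416 genes, 7.9% rose. Of the 63 members with lower FPKM, 0 rose and 1 fell by edgeR (3 and 7 at an unadjusted p under 0.05, 1 and 1 by DESeq2, 0 and 0 by limma-voom), beside 2.22% and 5.05% of the 10246 tested genes with lower FPKM.

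Summed over all members, the transcripts came to 39519, 42338 and 41798 CPM (read counts scaled to library size with TMM factors) in MCH and 37746, 35996 and 35633 CPM in Control, a ratio of 1.131. The groups did not overlap, and MCH replicate 1 was the lowest of the MCH libraries. Over single genes the shift was small: the median log2 fold change (MCH over Control) of the tested members was 0.07, beside 0.00 for all tested genes (0.112 for the members after removal of a length and GC trend). All 3 MCH libraries lay above all 3 Control libraries for 44 members (29.3%), beside 16.1% of all tested genes. They lay below them for 16 members (10.7%), beside 16.6%.

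**Figure D1:**
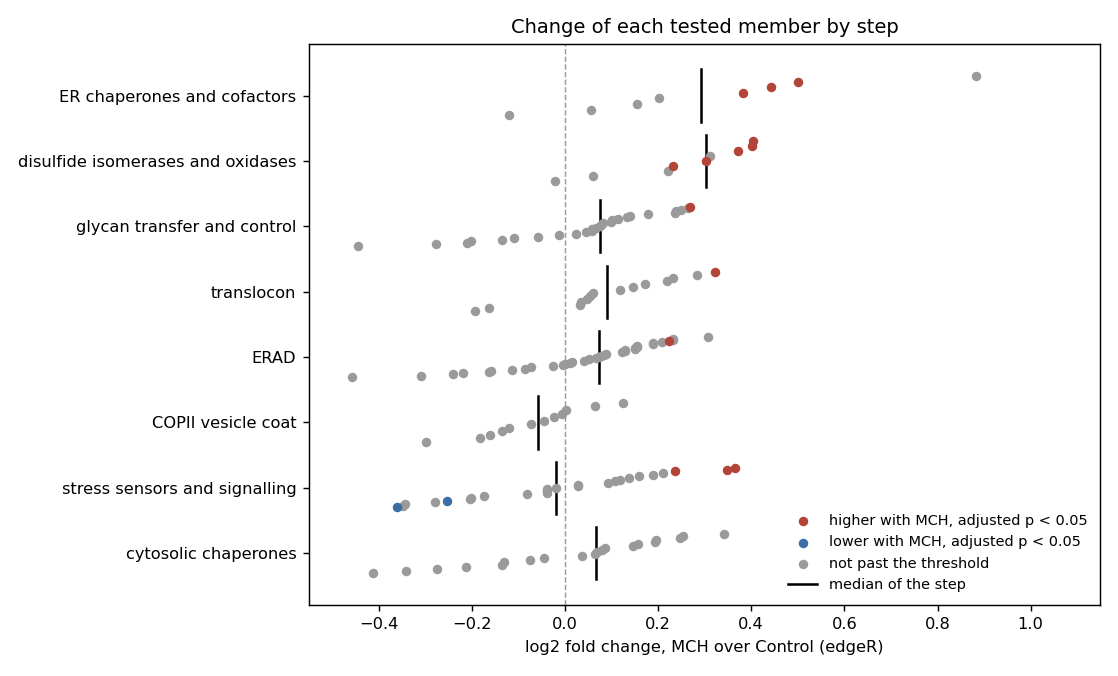
Each point is the log2 fold change (MCH over Control) of 1 tested member, arranged by step of the pathway, with a line at the median of the step. The medians of the ER chaperones (0.29) and the disulfide enzymes (0.30) lie to the right of the others, which run from -0.06 to 0.09.

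The 8 chaperones and cofactors of the ER lumen and membrane included 3 that rose (37.5%, beside 3.64% of all tested genes) and 0 that fell by edgeR. Their median log2 fold change was 0.29. At an unadjusted p under 0.05, 5 were higher and 0 lower, and DESeq2 and limma-voom called the same numbers as edgeR. Hsp90b1 (chr10:86690209-86705509, minus strand, GRCm38), the ER form of the HSP90 chaperones, had 2384, 2327 and 2487 CPM in MCH against 1694, 1805 and 1592 CPM in Control. Every MCH library lay far above every Control library, and the log2 fold change was 0.50 ± 0.07 (SE, adjusted p = 0.00901). Calr (chr8:84841850-84846934, minus strand), the calcium-binding lectin chaperone calreticulin, had 2816, 3276 and 3152 CPM in MCH against 2478, 2348 and 2266 CPM in Control. Its groups did not overlap, with MCH replicate 1 closest to Control, and it rose by 0.38 ± 0.08 (adjusted p = 0.0308). Sil1, the nucleotide exchange factor of BiP, had 120.1, 140.2 and 139 CPM in MCH against 102, 90.6 and 102 CPM in Control, again without overlap, and rose by 0.44 ± 0.08 (adjusted p = 0.0198). The call of Hsp90b1 was lost without MCH replicate 3 (adjusted p = 0.0562). Those of Calr and Sil1 were lost without MCH replicate 2 or 3 or Control replicate 2 or 3 (adjusted p up to 0.13 and 0.0875).

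Hspa5 (chr2:34771970-34777547, plus strand), the main ER chaperone BiP, had the largest fitted difference of any member and did not pass the test. It had 996, 2436 and 2357 CPM in MCH against 1686, 706 and 751 CPM in Control. Replicate 1 of each group went against its 2 companions, low in MCH and high in Control, so the groups overlapped and the log2 fold change of 0.88 ± 0.54 had an adjusted p of 0.375. Leaving out 1 library at a time gave 0.66 to 1.41. Canx, the membrane lectin chaperone calnexin, had 621, 516 and 530.2 CPM in MCH against 467, 511 and 472 CPM in Control. All MCH values were the higher, by little for 2 of them (0.20 ± 0.09, adjusted p = 0.182). Dnajb11, a co-chaperone of BiP, had 81.0, 82.9 and 84.3 CPM in MCH against 73.5, 74.9 and 74.5 CPM in Control, a narrow gap that did not pass (0.16 ± 0.06, adjusted p = 0.135). Hyou1, an ER chaperone of the HSP70 family, and the BiP co-chaperone Dnajc1 overlapped between groups, with log2 fold changes of 0.05 ± 0.19 and -0.12 ± 0.13.

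Of the 9 genes of the disulfide step, in which Erp29 was also placed, 5 rose (55.6%, beside 3.64% of all tested genes) and 0 fell by edgeR. DESeq2 called 6 and 0, limma-voom 4 and 0, and 7 and 0 had an unadjusted p under 0.05. When 1 library was left out, 0 to 3 rose. In 7 of the 9 (77.8%, beside 16.1% of all tested genes) all MCH libraries lay above all Control libraries, and the median log2 fold change was 0.30. Pdia6, a protein disulfide isomerase, had 706, 790.4 and 777 CPM in MCH against 609, 578 and 572 CPM in Control, without overlap (0.37 ± 0.07, adjusted p = 0.0193). Pdia3, the isomerase that works with calreticulin and calnexin on glycoproteins, had 1146, 1413 and 1291 CPM in MCH against 1006, 1014 and 892 CPM in Control (0.40 ± 0.10, adjusted p = 0.041). Its MCH libraries spread more widely than its Control libraries but stayed above them. Ero1l, the oxidase that passes electrons from the isomerases to oxygen, had 2329, 2266 and 2282 CPM in MCH against 1852, 1948 and 1774 CPM in Control, close together in MCH and clear of Control (0.30 ± 0.07, adjusted p = 0.0343).

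Pdia4, another isomerase, had 361, 336 and 353 CPM in MCH against 293, 303 and 299 CPM in Control (0.23 ± 0.06, adjusted p = 0.0431). Erp29, a thioredoxin-fold protein that assists secretion, had 245, 222 and 270.1 CPM in MCH against 165, 192 and 201 CPM in Control (0.40 ± 0.10, adjusted p = 0.0464). Neither gene overlapped between groups. Each of these 5 calls rested on most of the libraries: Pdia6 was lost without MCH replicate 2 or 3 or Control replicate 2 or 3 (adjusted p up to 0.0947), Pdia3 and Ero1l were kept in a single case, without MCH replicate 1 (up to 0.138 and 0.135 otherwise), and Pdia4 and Erp29 were lost without any 1 library (up to 0.163 and 0.155). With all libraries, the call of Pdia4 held in 5 and that of Erp29 in 3 of 9 other settings.

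P4hb, the archetypal disulfide isomerase and also the shared subunit of collagen prolyl 4-hydroxylase, was the most abundant member. It had 3818.5, 4047 and 3991 CPM in MCH against 3489, 3314 and 3376 CPM in Control; the groups were apart but the gene missed the threshold (0.22 ± 0.07, adjusted p = 0.0875). The second oxidase, Ero1lb, was expressed at a far lower level, 2.16 ± 0.140 FPKM in MCH and 1.75 ± 0.175 FPKM in Control (0.31 ± 0.13, adjusted p = 0.174). Dnajc10, an ER reductase, overlapped between groups (0.06 ± 0.07). Txndc5, a thioredoxin-domain isomerase, had 644, 318 and 294 CPM in MCH against 633, 336 and 306 CPM in Control: replicate 1 was high in both groups, and the other values of the groups overlapped (-0.02 ± 0.47).

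**Figure D2:**
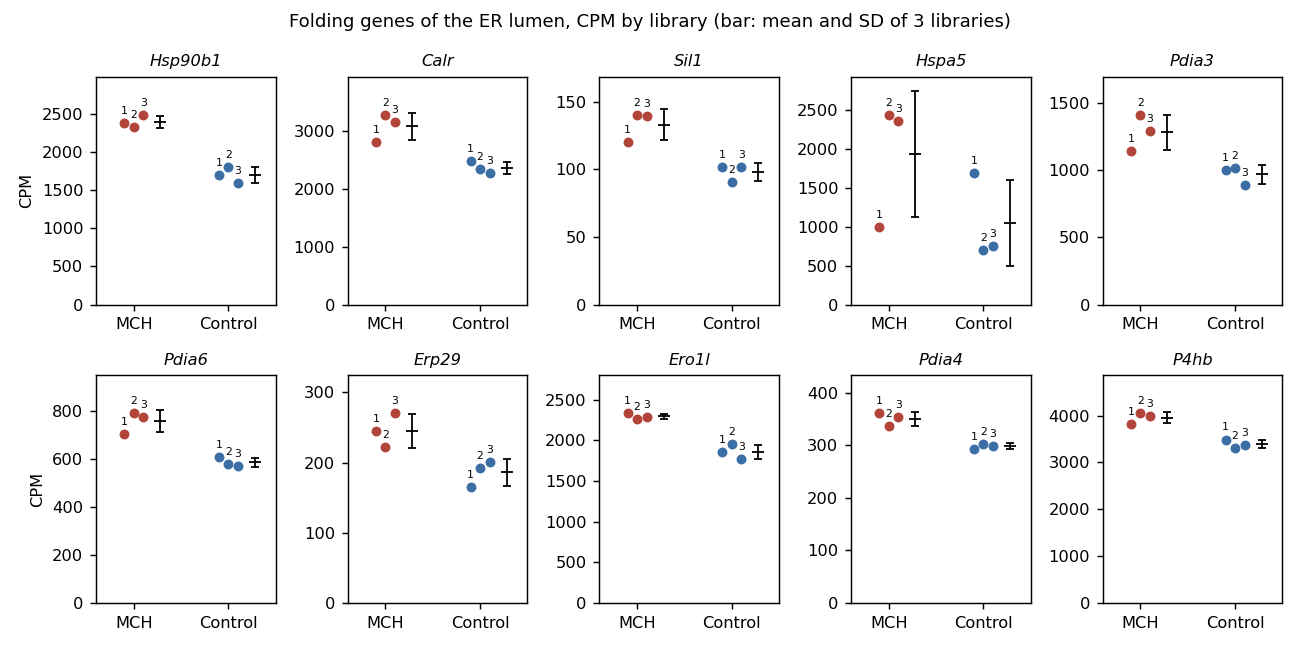
CPM in each of the 3 MCH (left) and 3 Control (right) libraries for 10 folding genes of the ER lumen, with the mean and SD of each group. MCH lies above Control without overlap in every panel except that of Hspa5, where replicate 1 of each group falls among the other group's values.

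Taken as 1 pool, the 17 chaperones and disulfide enzymes summed to 16635, 18499 and 18346 CPM in MCH and 14850, 13574 and 13031 CPM in Control, a ratio of 1.29. The chaperones alone gave 8355 ± 995 CPM in MCH and 5938 ± 627 CPM in Control (SD, n = 3), a ratio of 1.407. Calr contributed most to the chaperone sums, with means of 3081 CPM in MCH and 2364 CPM in Control, and Hsp90b1 came next (2399 and 1697 CPM). Hspa5, with its unequal replicates, had lower means of 1930 CPM in MCH and 1047 CPM in Control. The difference between the group means was nevertheless wider for Hspa5 than for Calr or Hsp90b1. The disulfide enzymes gave 9471 ± 74.3 CPM in MCH and 7880.0 ± 314 CPM in Control, a ratio of 1.202. In the chaperones MCH replicate 1 was the lowest of its group, whereas the sum of the disulfide enzymes was level across the MCH libraries. Without Txndc5, which was high in replicate 1 of both groups, the other 8 disulfide enzymes summed to 8785, 9239 and 9134 CPM in MCH and 7571, 7525 and 7269 CPM in Control, with MCH replicate 1 again the lowest of MCH.

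Glycan transfer and control comprised 27 tested genes. By edgeR, 1 rose (3.7%, beside 3.64% of all tested genes) and 0 fell (beside 5.4%). DESeq2 called 2 and 0, limma-voom 1 and 0, and 5 and 0 had an unadjusted p under 0.05. Lman2, a lectin that carries glycoproteins between the ER and the Golgi, had 342, 357 and 350.4 CPM in MCH against 306, 278 and 288 CPM in Control, without overlap (0.27 ± 0.06, adjusted p = 0.0335). Its call was lost without MCH replicate 2 or 3 or Control replicate 2 or 3 (adjusted p up to 0.131). The glucosidases that trim the new glycan did not pass: Mogs had 84.7, 83.6 and 90.0 CPM in MCH against 74.5, 73.0 and 69.8 CPM in Control (0.25 ± 0.06, adjusted p = 0.0514). The 2 subunits of the next enzyme, glucosidase II, differed in their values, with 0.24 ± 0.07 for the regulatory Prkcsh and 0.02 ± 0.05 for the catalytic Ganab (adjusted p = 0.0818 and 0.807). The difference between the subunits was not tested. Of the oligosaccharyltransferase, which attaches the glycan, Rpn2, Dad1 and Rpn1 had 0.26 ± 0.09, 0.24 ± 0.12 and 0.18 ± 0.06 (adjusted p = 0.118, 0.232 and 0.088). Tusc3 and Ddost had 0.13 ± 0.06 and 0.10 ± 0.06 (adjusted p = 0.218 and 0.318). The catalytic Stt3a and Stt3b had 0.07 ± 0.05 and 0.06 ± 0.05. Uggt1, which senses the folding state of glycoproteins, had 129, 121 and 119 CPM in MCH against 109.8, 116 and 123 CPM in Control, with overlap. The mannosidase-like Edem1, which marks glycoproteins for degradation, had 93.2 ± 3.65 CPM in MCH and 89.5 ± 4.89 CPM in Control (SD, n = 3). The sum over the step was 4698 ± 103 CPM in MCH and 4285 ± 93.5 CPM in Control, a ratio of 1.096.

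Among 14 tested genes of the translocon and the membrane around it, 1 rose and 0 fell by edgeR, DESeq2 and limma-voom. By edgeR that was 7.14% higher, beside 3.64% of all tested genes. At an unadjusted p under 0.05, 4 were higher and 2 lower. Bcap31, an ER membrane protein that helps to export other membrane proteins, had 284, 335 and 310.5 CPM in MCH against 252, 246 and 245 CPM in Control, without overlap (0.32 ± 0.07, adjusted p = 0.0324). The call was kept without MCH replicate 1 and lost without any other 1 library (adjusted p up to 0.121). Sec61a1, the pore of the channel, lay the other way, with 542, 543 and 522 CPM in MCH against 595, 577 and 629 CPM in Control, but did not pass (-0.16 ± 0.06, adjusted p = 0.137). Rrbp1, a ribosome-binding protein of the rough ER, had the same pattern at 730.1, 756 and 774 CPM in MCH against 863, 819 and 903 CPM in Control (-0.19 ± 0.07, adjusted p = 0.109). These 2 were the 2 members of the step with every MCH library below every Control library (14.3%, beside 16.6% of all tested genes). Ssr1 and Ssr2, subunits of the translocon-associated protein complex, had 0.17 ± 0.06 and 0.23 ± 0.08 (adjusted p = 0.103 for each), and Sec61b, the beta subunit of the channel, had 0.03 ± 0.15. The step summed to 4238 ± 110.2 CPM in MCH and 4156 ± 95.4 CPM in Control, a ratio of 1.02.

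ERAD held 36 members, of which 35 were tested. By edgeR, DESeq2 and limma-voom, 1 rose (2.86%, beside 3.64% of all tested genes by edgeR) and 0 fell (beside 5.4%). At an unadjusted p under 0.05, 5 of the 35 were higher and 2 lower, beside 1767 and 1890 of all 13662 tested genes. Vcp, the ATPase that pulls proteins out of the ER membrane, had 474, 486 and 483 CPM in MCH against 414, 405 and 416 CPM in Control, tight and separate in both groups (0.22 ± 0.05, adjusted p = 0.0422). Its call was kept without MCH replicate 1 and lost without any other 1 library (adjusted p up to 0.163). Its cofactors Ufd1 and Nploc4 had 0.08 ± 0.10 and -0.02 ± 0.08. Syvn1, the ubiquitin ligase at the centre of the pathway, had 45.7, 75.2 and 75.1 CPM in MCH against 86.3, 88.1 and 94.8 CPM in Control. MCH replicate 1 was much the lowest, all MCH libraries lay below Control, and the difference did not pass (-0.46 ± 0.20, adjusted p = 0.202). Sel1l, its partner, varied 6.39-fold within MCH and 2.36-fold within Control, and its groups overlapped (-0.31 ± 0.76). Derl1, a retrotranslocation channel protein, had 225 ± 9.89 CPM in MCH and 203 ± 1.66 CPM in Control (SD, n = 3; 0.15 ± 0.06, adjusted p = 0.137). Herpud1, which organises the ligase complex and carries an ERSE-II match, had 129, 111 and 129 CPM in MCH against 107, 121 and 108 CPM in Control, with overlap (0.13 ± 0.08, adjusted p = 0.367). The step summed to 3697 ± 95.0 CPM in MCH and 3557 ± 57.1 CPM in Control, a ratio of 1.039.

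Of the 12 COPII genes, 0 passed the test with edgeR, DESeq2 or limma-voom, beside 9.04% of all tested genes in either direction by edgeR. With 12 genes, 0 lies close to that share. At an unadjusted p under 0.05, 0 were higher and 1 lower. Of the 12, 9 had a log2 fold change below 0, and the median was -0.06. For none of the 12 did the groups separate in either direction, beside 16.1% of all tested genes above and 16.6% below. Sec24d, a cargo-selecting subunit whose loss impairs collagen export in zebrafish, had 112, 86.1 and 94.4 CPM in MCH against 109, 128 and 122 CPM in Control. Only MCH replicate 1 reached into the Control range (-0.30 ± 0.11, adjusted p = 0.126), and without it the gene passed (adjusted p = 0.0305). Its partner in the inner coat, Sec23a, had 70.2, 53.4 and 61.4 CPM in MCH against 67.7, 76.1 and 66.2 CPM in Control, and the same library was the highest of MCH (-0.18 ± 0.11, adjusted p = 0.332). Sec31a, of the outer coat, had 297, 172 and 260.0 CPM in MCH against 226, 284 and 290.0 CPM in Control (-0.14 ± 0.22), and Sar1a, the GTPase that starts coat assembly, had 252 ± 7.75 CPM in MCH and 256 ± 2.33 CPM in Control (SD, n = 3). The step summed to 1405.5 ± 88.0 CPM in MCH and 1480.0 ± 60.1 CPM in Control, a ratio of 0.95.

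**Figure D3:**
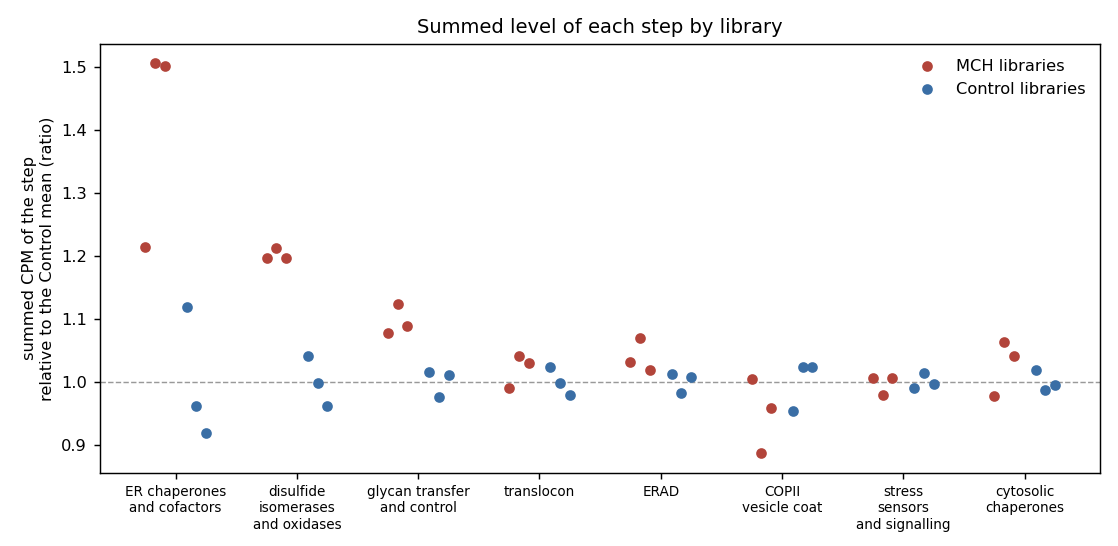
Summed CPM of the members of each step in each library, divided by the Control mean of the step. The 3 MCH libraries lie above the 3 Control libraries for the chaperones (ratio of means 1.407), the disulfide enzymes (1.202), glycan control (1.096) and ERAD (1.039), and the groups overlap in the other steps.

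Of 25 tested stress sensors and signalling partners, 3 rose and 2 fell by edgeR and 20 did not pass. Of all tested genes, 3.64% rose and 5.4% fell. At an unadjusted p under 0.05, 3 of the 25 were higher and 7 lower, and DESeq2 called 3 and 2 and limma-voom 2 and 1. In all, 5 of the 25 had all MCH libraries above Control, beside 16.1% of all tested genes, and 8 all below, beside 16.6%. Eif2ak2, the kinase that senses double-stranded RNA and phosphorylates the initiation factor eIF2, had 90.1, 92.1 and 87.7 CPM in MCH against 67.2, 73.1 and 69.1 CPM in Control, far apart (0.37 ± 0.06, adjusted p = 0.0152). Eif2s1, the phosphorylated subunit of that factor, had 123, 127 and 131 CPM in MCH against 109, 111 and 104 CPM in Control (0.24 ± 0.06, adjusted p = 0.0489). Bak1, a pore-forming protein of apoptosis, had 99.0, 104 and 106 CPM in MCH against 86.9, 82.5 and 73.5 CPM in Control (0.35 ± 0.08, adjusted p = 0.0333). None of the 3 overlapped between groups. Mbtps1, the Golgi protease that makes the first cut in activating Atf6, had 177, 164 and 169.5 CPM in MCH against 195, 201 and 212 CPM in Control (-0.25 ± 0.06, adjusted p = 0.0407). Casp12, an ER-associated caspase of rodents, had 65.3, 60.1 and 59.9 CPM in MCH against 85.0, 82.0 and 71.1 CPM in Control (-0.36 ± 0.09, adjusted p = 0.0412). Both were below Control in every library.

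Each of these 5 calls depended on several libraries. Eif2ak2 was lost without MCH replicate 2 or 3 or Control replicate 3 (adjusted p up to 0.0637), Bak1 without MCH replicate 2 or 3 or Control replicate 2 or 3 (up to 0.13), and Casp12 without MCH replicate 2 or 3 or Control replicate 1 or 2 (up to 0.15). Eif2s1 and Mbtps1 were kept in a single case, without MCH replicate 1 (up to 0.183 and 0.151 otherwise). With all libraries, the call of Eif2s1 held in 2 of 9 other settings.

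None of the 3 membrane sensors passed the test with all 6 libraries, beside 9.04% of all tested genes in either direction. Eif2ak3, the ER kinase PERK, had 31.8, 25.7 and 27.4 CPM in MCH against 35.4, 38.0 and 34.4 CPM in Control, every MCH library below Control (-0.34 ± 0.10, adjusted p = 0.0734, or 0.0285 without MCH replicate 1). Ern1, the kinase and endonuclease that splices Xbp1 mRNA, had 29.6, 23.5 and 26.6 CPM in MCH against 30.0, 35.7 and 35.8 CPM in Control, with MCH replicate 1 next to Control replicate 1 (-0.35 ± 0.11, adjusted p = 0.101). Atf6, the sensor cleaved in the Golgi, had 52.8, 47.2 and 48.2 CPM in MCH against 40.7, 50.9 and 47.5 CPM in Control, with overlap (0.09 ± 0.10, adjusted p = 0.606). Xbp1, the transcription factor made from the spliced mRNA, had 157, 157 and 164 CPM in MCH against 163, 165 and 165 CPM in Control (-0.04 ± 0.05, adjusted p = 0.675); counts per gene do not separate its spliced form. Ppp1r15a, which recruits the phosphatase of eIF2, had 124, 123 and 121 CPM in MCH against 131, 148 and 136 CPM in Control (-0.17 ± 0.06, adjusted p = 0.125). The pair set apart at the start, the stress transcription factors Atf4 and Ddit3, had 814 ± 32.8 and 195 ± 23.1 CPM in MCH against 709.6 ± 32.7 and 159 ± 14.1 CPM in Control (SD, n = 3; 0.20 ± 0.07 and 0.30 ± 0.10, adjusted p = 0.107 and 0.11).

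**Figure D4:**
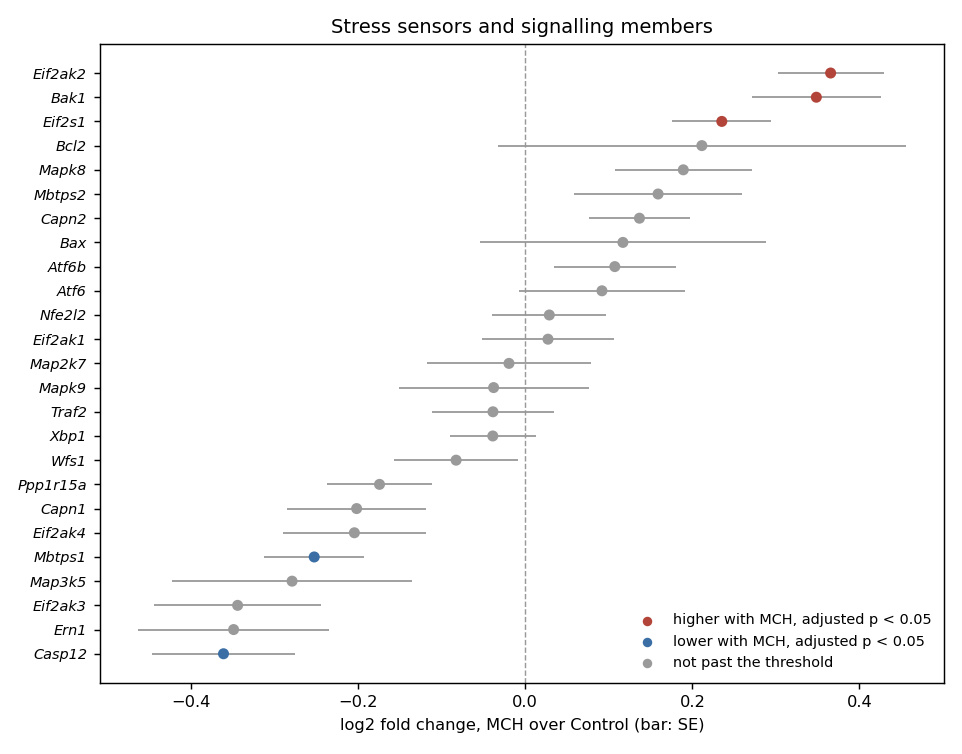
Log2 fold change (MCH over Control) with its SE for the 25 tested stress sensors and signalling members. Eif2ak2, Bak1 and Eif2s1 lie above 0 past the threshold, Mbtps1 and Casp12 below it, and the sensors Eif2ak3 and Ern1 lie at -0.34 and -0.35 without passing.

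The term also lists 20 cytosolic chaperones and co-chaperones. With edgeR or limma-voom 0 passed the test (beside 9.04% of all tested genes by edgeR), and 1 was higher by DESeq2. At an unadjusted p under 0.05, 5 were higher and 1 lower. Hsp90ab1, the constitutive cytosolic HSP90, had 3630.1, 3735 and 3677 CPM in MCH against 3842, 3810.4 and 3735 CPM in Control (-0.04 ± 0.07), beside the rise of its ER relative Hsp90b1. Hsph1, an exchange factor of cytosolic HSP70, had 80.5, 75.2 and 94.8 CPM in MCH against 70.7, 64.0 and 63.0 CPM in Control (0.34 ± 0.10, adjusted p = 0.0737). The stress-induced Hspa1a, nearly identical in sequence to Hspa1b and thus uncertain, had 2.74 ± 0.658 CPM in MCH and 3.65 ± 0.465 CPM in Control (SD, n = 3; -0.41 ± 0.22, adjusted p = 0.283). The step summed to 7579 ± 327 CPM in MCH and 7382 ± 124 CPM in Control, a ratio of 1.027.

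A few members had replicates far apart. Counting members with at least 100 counts on average, 6 of 145 (4.14%) had replicates at least 2-fold apart within a group, beside 679 of 10491 genes (6.47%); this count was chosen after the values were seen. The 6 were Hspa5, Edem3, Sel1l, Skp1a, Ube2g2 and Txndc5. Ube2g2, a ubiquitin-conjugating enzyme of ERAD, had 102, 30.9 and 34.0 CPM in MCH against 31.7, 42.5 and 107 CPM in Control, 1 high library in each group. Sel1l had 55.3, 102 and 16.0 CPM in MCH against 83.6, 39.0 and 92.1 CPM in Control. Edem3, a mannosidase-like protein that acts like Edem1, had 4.75, 18.1 and 16.2 CPM in MCH against 17.8, 19.9 and 15.5 CPM in Control, with MCH replicate 1 alone low (-0.44 ± 0.50). Replicate 1 stood apart in both groups for Hspa5 and Txndc5, as did MCH replicate 1 for Edem3, and MCH replicate 1 and Control replicate 3 for Ube2g2. In Skp1a, part of a ubiquitin ligase, MCH replicate 2 was the high MCH library and Control replicate 3 the low Control library.

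**Figure D5:**
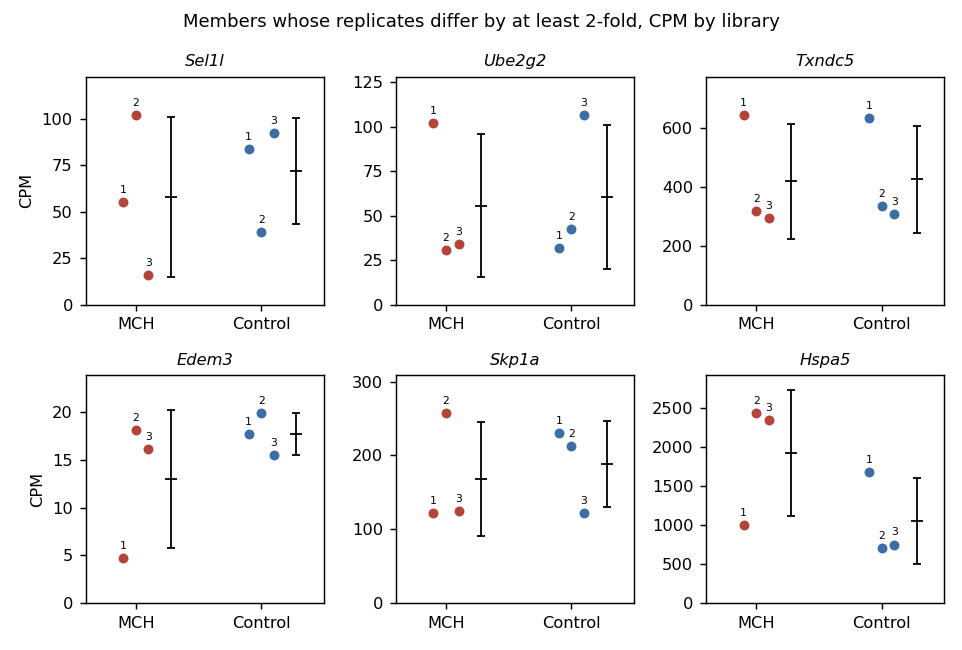
CPM in each of the 3 MCH (left) and 3 Control (right) libraries for the 6 members whose replicates were at least 2-fold apart within a group. In each panel the spread within a group is as large as or larger than the difference between groups; Sel1l spans 16.0 to 102 CPM within MCH.

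Genes next to the term in the same pathway were read from lists of their own. Of 19 tested genes for signal recognition, signal peptide cleavage and membrane insertion, 4 rose and 0 fell by edgeR. The 4 are 21.1%, beside 3.64% of all tested genes, and the median log2 fold change was 0.22. DESeq2 called 7 and 0, limma-voom 4 and 0, and 9 and 0 had an unadjusted p under 0.05. Spcs3, a subunit of the signal peptidase, had 279, 274 and 282 CPM in MCH against 218, 227 and 207 CPM in Control, wide apart (0.36 ± 0.06, adjusted p = 0.0118; 0.0655 without MCH replicate 3). Sec11c, a catalytic subunit of the same enzyme, Srp9, of the signal recognition particle, and Emc2, of the membrane insertion complex, rose by 0.45 ± 0.09, 0.38 ± 0.08 and 0.29 ± 0.06 (adjusted p = 0.0205, 0.0306 and 0.0289). Sec11c was lost without MCH replicate 2 or 3 or Control replicate 2 or 3 (adjusted p up to 0.0851), and Srp9 and Emc2 were kept in a single case, without MCH replicate 1 (up to 0.0999 and 0.113 otherwise). Of 16 tested targets of the unfolded protein response outside the term, 0 rose by edgeR and 1 fell (6.25%, beside 5.4% of all tested genes). Their median log2 fold change was 0.107, beside 0.002 for all tested genes, with 10 of the 16 above 0 and 6 below. DESeq2 called 0 and 2, limma-voom 0 and 1, and 1 and 2 had an unadjusted p under 0.05. The gene that fell by edgeR was Arfgap3, which acts in vesicle return from the Golgi. It had 84.8, 88.5 and 86.0 CPM in MCH against 119, 118 and 124 CPM in Control (-0.48 ± 0.06, adjusted p = 0.00364). Its call was kept without any 1 library.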

How the data were processed

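Polyadenylated RNA was sequenced from 6 libraries made, per the labels' protocols, with an Illumina-type RNA-seq kit (VAHTS). The authors deposited whole-number read counts and FPKM values for each gene and library, per the file headers, with a KEGG column that gave the members. The deposited FPKM values use the authors' own gene lengths, which for the members ran from 0.55 to 4.3 times that of the longest GENCODE M21 transcript, so levels set between genes rest on those lengths. P-values and q-values of the authors' own comparison stand in the deposited table. GRCm38 (mm10) is the genome build named in the submitters' processing notes. Aligner, counter, strand setting and the authors' test: not given in the sources used here. Reads shared by near-identical or overlapping genes (Hspa1a and Hspa1b, Hspa8, the Hsp90 and Ube2d genes) make those values uncertain.

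The counts went into edgeR 4.0.16 (R 4.3.3) with TMM factors, filterByExpr (minimum count 10, minimum total 15), a robust quasi-likelihood fit on group and two-sided tests, adjusted by Benjamini-Hochberg over 13662 genes at 0.05; 5691 genes were left out. Log2 fold changes are MCH over Control. An SE is the absolute unshrunken log2 coefficient over the square root of F. Counts were simulated for MCH against Control over 13662 genes. Of genes changed 1.5-fold, 2-fold and 3-fold, 26%, 67% and 94% were recovered, with 4.07% false calls. The largest change of a called member, that of Hsp90b1, was 1.41-fold, so recovery at the members' own folds was not simulated. Alternative settings were scaling by RLE or upper quartile, other filters, a non-robust fit, DESeq2 1.42.0, limma-voom and limma 3.58.1 on log2(FPKM + 1), a replicate block, removal of a length and GC trend, and leaving out each library.

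Members, steps and lists were chosen with earlier results of these data known; Rrbp1 and Ckap4 were placed with the translocon once the table had been seen. Named genes were up to 6 called members of each step, a fixed set of anchor genes, the 3 largest fitted changes in each direction and up to 4 called genes of each list outside the term. Other members named with values (Dnajc1, Ero1lb, Dnajc10, Txndc5, Mogs, Prkcsh, Rpn1, Rpn2, Dad1, Tusc3, Ddost, Stt3a, Stt3b, Rrbp1, Ssr2, Ufd1, Nploc4, Ube2g2, Skp1a, Hsph1, Hsp90ab1 and Cryab) were chosen after their values were seen. Promoter windows are from RefSeq (GRCm38.p6).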

Additional observations from a re-analysis of the deposited data

How the results depend on the processing

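The 14 higher and 2 lower members became 14 and 2 with RLE scaling, 11 and 2 with upper-quartile scaling, 11 and 2 without a filter, 12 and 2 with a mean of at least 100 counts, 17 and 2 with DESeq2, 12 and 1 with a non-robust fit, 12 and 1 with limma-voom and 11 and 1 with limma on log2(FPKM + 1). Across these settings, 2.7% to 5.17% of all tested genes were higher and 3.81% to 6.56% lower. With DESeq2 the shares were 5.17% and 6.27%, and with limma-voom 3.16% and 4.93%. P4hb was past the threshold with DESeq2 (adjusted p = 0.0173). Leaving out 1 library gave 0 to 15 higher and 0 to 5 lower members, with 15 and 5 without MCH replicate 1, 1 and 0 without MCH replicate 2, 0 and 0 without MCH replicate 3, 7 and 0 without Control replicate 1, 2 and 0 without Control replicate 2 and 1 and 1 without Control replicate 3. Over the whole table the 497 higher and 738 lower genes ranged from 65 to 722 and from 256 to 867.

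The members' median log2 fold change of 0.065 was 0.056 with upper-quartile scaling, 0.055 with a mean of at least 100 counts, 0.05 with limma on log2(FPKM + 1), 0.112 with the length and GC trend removed and 0.065 to 0.078 without 1 library. It stayed above 0 in each. The sign turned, always short of the threshold, for Hyou1 (-0.105 without MCH replicate 1, -0.082 without Control replicate 1; range to 0.184), Sec31a (-0.305 to 0.063, the last without MCH replicate 2), Sec61b (-0.02 without MCH replicate 2, -0.053 without MCH replicate 3, -0.058 without Control replicate 3; range to 0.168) and Sel1l (-1.006 to 0.137, the last without MCH replicate 3). The cause was not tested.

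Same-numbered libraries of the 2 groups did not deviate together (correlations of -0.161, -0.0386 and -0.0138), so the numbers were not taken as pairs. With the replicate block, 28 genes were higher and 151 lower, and 0 members were called in either direction (0 higher, 0 lower).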

Other observations

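Of 20 tested genes that fold and export collagen, outside the KEGG term, 1 rose and 2 fell by edgeR (5.0% and 10.0%, beside 3.64% and 5.4% of all tested genes) and 17 did not pass. At an unadjusted p under 0.05, 4 were higher and 2 lower; DESeq2 called 2 and 2, and limma-voom 1 and 2. Crtap, a subunit of the complex that 3-hydroxylates collagen prolines, had 245, 282 and 273 CPM in MCH against 179, 157 and 173 CPM in Control, without overlap (log2 fold change 0.65 ± 0.08, SE, adjusted p = 0.00364). P4ha3, a catalytic subunit of the prolyl 4-hydroxylase that P4hb completes, had 29.7, 28.2 and 24.1 CPM in MCH against 40.4, 43.4 and 44.4 CPM in Control, again without overlap (-0.65 ± 0.10, adjusted p = 0.00954). Sec16b, a scaffold of ER exit sites, had 14.3, 12.8 and 11.7 CPM in MCH against 17.8, 19.9 and 19.2 CPM in Control (-0.55 ± 0.11, adjusted p = 0.0247). Crtap and P4ha3 kept their calls without any 1 library, and Sec16b lost its call without MCH replicate 2 or 3 or Control replicate 2 or 3 (adjusted p up to 0.0958). Serpinh1, the collagen chaperone, had 1084, 559 and 724 CPM in MCH against 691, 670.4 and 973 CPM in Control, with wide overlap; it was chosen after its values were seen.

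Of 24 tested genes that return ER proteins from the Golgi, 0 passed by edgeR, DESeq2 or limma-voom, beside 9.04% of all tested genes by edgeR. At an unadjusted p under 0.05, 5 were higher and 0 lower. Of 13 tested genes for ER-phagy and ER shape, 1 was lower and 1 higher at an unadjusted p under 0.05. By edgeR, DESeq2 and limma-voom, 0 rose and 1 fell (7.69%, beside 5.4% of all tested genes by edgeR). That gene, Calcoco1, a receptor for autophagy of the ER, had 146, 134 and 135 CPM in MCH against 191, 186 and 192 CPM in Control (-0.46 ± 0.06, adjusted p = 0.00449) and kept its call without any 1 library.

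In the authors' deposited table, 522 genes have a q-value under 0.05, and Hsp90b1 is the 1 member among them (q = 0.00892), with the higher deposited mean in MCH.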
